A study of Homo sapiens with 3 samples.

Results

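Cytochrome P450 genes were followed through a genome-wide CRISPR knockout screen for resistance to ferroptosis in Huh-7, a human cell line grown from a hepatocellular carcinoma. The members were the genes whose symbol has the form CYP, family number, subfamily letter and gene number, with CYP51A1 left out because it belongs to sterol synthesis. The rule found 54 genes among the 18992 genes targeted by the library, and their 320 sgRNAs were 0.268% of all 119461 sgRNAs. In all, 51 of the genes had 6 sgRNAs each, and the others had 4 or 5.

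The screen consisted of 3 libraries of sgRNA counts, 1 per condition. All cells carried the GeCKOv2 pool, which delivers Cas9 and an sgRNA from a lentivirus, after infection at a target multiplicity of 0.3 and puromycin for 3 days. Untreated cells received nothing further. RSL-3 survivors came from cells exposed for 24 h to 0.1 µM RSL-3, an inhibitor of the lipid peroxide reductase GPX4. RSL-3/LA survivors came from cells exposed for 24 h to 0.03 µM RSL-3 together with 50 mM linoleic acid (LA), a polyunsaturated fatty acid. The labels and the study both write this unit for LA, which is high for a fatty acid in culture and could not be checked here. Both selections were repeated, and the study's legends and methods give different numbers of rounds. The RSL-3 dose differed between the selections, so survivor values stand side by side and each is set against the same untreated library. The sgRNAs were read from genomic DNA, and the expression of P450 genes in these cells was not measured.

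P450 enzymes are haem proteins that split molecular oxygen and insert 1 of its atoms into a lipid or drug. Those of the endoplasmic reticulum receive their electrons from the reductase POR, and those of mitochondria from the ferredoxin FDX1 and its reductase FDXR. Hepatocytes use them to clear foreign compounds, to turn cholesterol into bile acids and to oxidise fatty acids, LA among them. POR is also known to promote the peroxidation of membrane lipids during ferroptosis.

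The total count was 1466896 in untreated cells, 1467705 after RSL-3 and 1485991 after RSL-3/LA, and counts were scaled to 1000000 per library (CPM). Counts of DHCR7, the gene with the largest share, were 34.3% of the RSL-3 library and 5.94% of the RSL-3/LA library, and they lower the CPM of every other gene there. Enriched sgRNAs are those that reached 100 CPM in a survivor library and at least 10 times the untreated CPM, with untreated values under 3 counts set to 3 counts. A fold against 0 counts is a lower bound against 3 counts in that library. Ratios and shares carry exact 95% intervals, which take in counting error alone, as several PCR reads can stem from the same molecule. Where a summed count is 0, the share of 3 counts is given as its limit in place of an interval. With 1 library per condition the conditions could not be tested against each other and no value has a replicate.

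Few P450 sgRNAs outlasted either selection, and those that did were mostly absent from the untreated library. In untreated cells 38 of the 320 sgRNAs (11.9%) had at least 1 count, against 15.9% of all gene-targeting sgRNAs. In RSL-3 survivors 6 had a count (1.88%, against 2.43%), and after RSL-3/LA 11 (3.44%, against 4.14%). All of these shares were below those of the whole library, by amounts that could not be tested. By gene, 29 of 54 P450 genes (53.7%) had an untreated count, against 63.5% of all genes. In RSL-3 survivors 5 genes (9.26%) had one, against 13.4%, and after RSL-3/LA 11 (20.4%), against 21.8%.

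**Figure D1:**
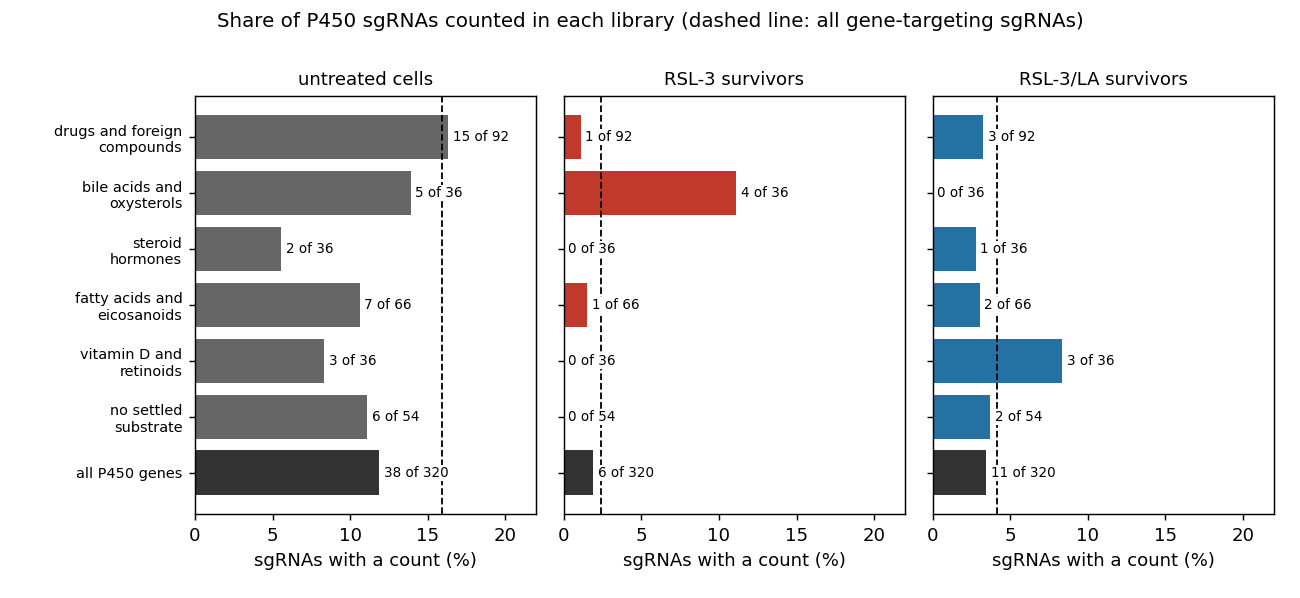
Share of the sgRNAs with at least 1 count (x axis, percent) in each library, for 6 substrate classes of P450 genes and for all 54 genes; the dashed lines mark all gene-targeting sgRNAs at 15.9%, 2.43% and 4.14%. The bile acid class had 4 of 36 sgRNAs after RSL-3 and 0 after RSL-3/LA, and the vitamin class 0 and 3 of 36. In the survivor panels, classes this small cannot show a share below that of the library.

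P450 sgRNAs together held 2755 counts in untreated cells, or 0.188% of the library (95% interval 0.181 to 0.195). They held 5563 counts after RSL-3, or 0.379% (0.369 to 0.389), and 2870 after RSL-3/LA, or 0.193% (0.186 to 0.200). The higher share of RSL-3 survivors came from a single gene, CYP4F11, with 96.4% of the P450 counts there, and the other 53 genes held 198 counts or 0.0135% (0.0117 to 0.0155). In RSL-3/LA survivors CYP4A11 had 65.9% of the P450 counts, and the others held 980 or 0.0659% (0.0619 to 0.0702). In untreated cells no gene had more than 9.22% of them.

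In RSL-3 survivors 1 P450 sgRNA was enriched (0.313% of 320), against 0.420% of all gene-targeting sgRNAs, and after RSL-3/LA 2 were (0.625%), against 1.19%. By gene these were 1 of 54 (1.85%), against 2.44% of all genes, and 2 of 54 (3.70%), against 6.72%. The numbers of enriched P450 sgRNAs were thus no higher than the shares of the whole library.

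**Figure D2:**
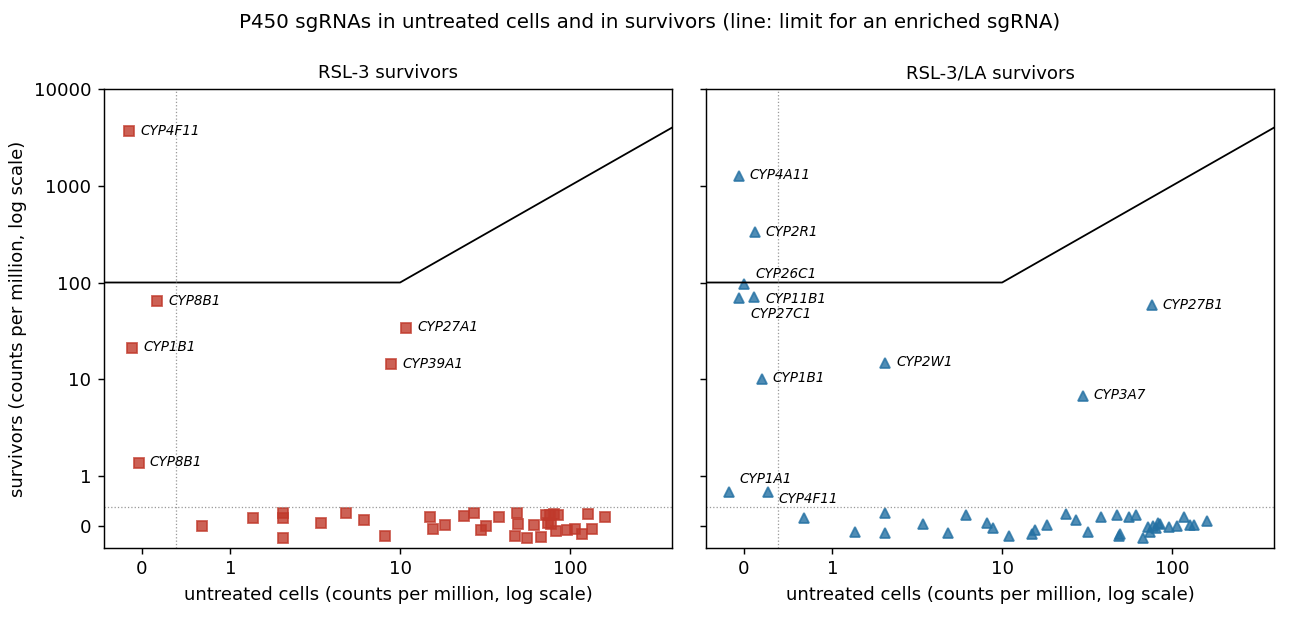
CPM of each P450 sgRNA in untreated cells (x axis) and in survivors (y axis), both on log scales; points beyond the dotted lines have 0 counts and are spread for visibility, and the black line is the limit for an enriched sgRNA. CYP4F11 lies above the line after RSL-3, CYP4A11 and CYP2R1 after RSL-3/LA, and most sgRNAs seen in untreated cells lie at 0 after selection.

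The enzymes of fatty acids and eicosanoids held the most counts of any class in both survivor libraries, nearly all of them in 1 sgRNA each time. The class has 11 genes and 66 sgRNAs, of which 7 had a count in untreated cells (10.6%, against 15.9% of all gene-targeting sgRNAs), 1 after RSL-3 (1.52%, against 2.43%) and 2 after RSL-3/LA (3.03%, against 4.14%). CYP4F11, a hydroxylase of long-chain fatty acids and of vitamin K, had 0 counts in untreated cells, 5365 after RSL-3 and 1 after RSL-3/LA. All of them came from HGLibB_12167, which was at least 1787-fold higher after RSL-3 than in untreated cells. It ranked 21 among all sgRNAs of the RSL-3 library and held 0.366% of it (0.356 to 0.375). The other 5 sgRNAs of CYP4F11 had 0 counts in every library, so the gene rests on a single sgRNA.

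CYP4A11, which hydroxylates the terminal carbon of medium-chain and long-chain fatty acids, had 0 counts in untreated cells, 0 after RSL-3 and 1890 after RSL-3/LA. Its sgRNA HGLibA_12172 was at least 622-fold higher than in untreated cells, ranked 107 in the library and held 0.127% of it (0.122 to 0.133). Here too the other 5 sgRNAs had 0 counts throughout.

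The close relatives of these genes had no survivor count, which by itself does not set them apart. Of all gene-targeting sgRNAs seen in untreated cells, 96.2% had 0 counts after RSL-3 and 93.8% after RSL-3/LA. CYP4F2, CYP4F3, CYP4F8, CYP4F12 and CYP4F22, which act on leukotrienes, prostaglandins, vitamin E or skin lipids, had 35, 198, 82, 56 and 12 untreated counts and 0 in both survivor libraries. CYP4F3 had these in 2 sgRNAs, of 125 and 73 counts. CYP4B1, which oxidises short fatty acids and some protoxins, had 238 untreated counts in HGLibA_12179 and 0 after either selection, at least 79.4-fold lower after RSL-3 and 80.4-fold lower after RSL-3/LA. CYP2J2 and CYP2U1, which oxidise arachidonic acid and other polyunsaturated fatty acids, and CYP4V2, a fatty acid hydroxylase of the retina, had no count in any library. Nothing was measured of these genes.

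**Figure D3:**
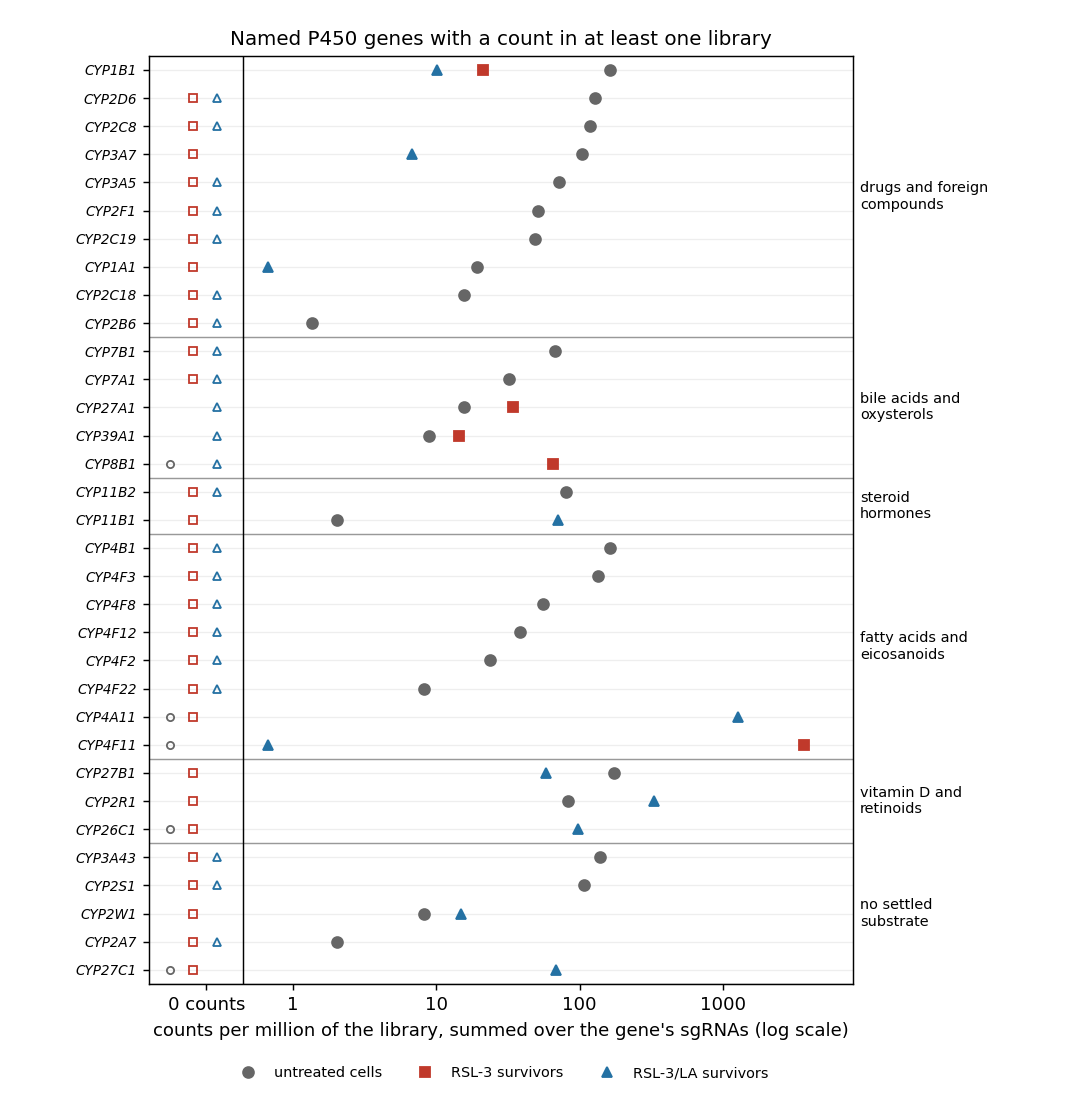
CPM summed over the sgRNAs of each P450 gene that is named in the text and had a count (x axis, log scale, with 0 counts drawn as open symbols at the left), grouped by substrate class; grey circles are untreated cells, red squares RSL-3 survivors and blue triangles RSL-3/LA survivors. Only CYP4F11 and CYP4A11 exceed 1000 CPM, each in a single survivor library and each with 0 untreated counts.

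Of the 36 sgRNAs of the 6 vitamin D and retinoid enzymes, 3 had a count after RSL-3/LA (8.33%, against 4.14% of all gene-targeting sgRNAs) and 0 after RSL-3 (against 2.43%), where so few sgRNAs cannot show a share below that of the library. The 3 sgRNAs, of 3 genes, held 724 counts after RSL-3/LA, or 0.0487% (0.0452 to 0.0524). Their 0 counts after RSL-3 have a limit of 0.000204%. CYP2R1, which carries out the liver step of vitamin D activation, had 492 counts after RSL-3/LA through HGLibB_12125, which had 0 in the other libraries and was at least 162-fold higher than in untreated cells. Another CYP2R1 sgRNA, HGLibB_12127, had 121 counts untreated and 0 after either selection. Such a loss was the rule, at 96.2% of all untreated gene-targeting sgRNAs after RSL-3 and 93.8% after RSL-3/LA. Over all 6 sgRNAs the ratio of CYP2R1 was 4.01 (3.28 to 4.94).

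CYP27B1, which makes the active hormone from the product of CYP2R1, was the P450 gene with the most untreated counts, 254 over 2 sgRNAs. HGLibA_12096 had 112 counts in untreated cells, 0 after RSL-3 and 87 after RSL-3/LA, a ratio of 0.767 (0.573 to 1.02) whose interval includes 1. HGLibB_12084 had 142, 0 and 0 counts. Thus the counted CYP27B1 sgRNAs parted after RSL-3/LA, one close to its untreated level within counting error and the other not seen. CYP26C1, a retinoic acid hydroxylase, had 145 counts after RSL-3/LA and 0 elsewhere. At 97.6 CPM it was just below the limit for an enriched sgRNA, and it was at least 47.7-fold higher than in untreated cells. CYP24A1, which degrades active vitamin D, and the retinoic acid hydroxylases CYP26A1 and CYP26B1 had no count in any library.

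Bile acid and oxysterol enzymes had counts after RSL-3 and none after RSL-3/LA. In RSL-3 survivors 4 of the 36 sgRNAs (11.1%) and 3 of the 6 genes had a count, against 2.43% of all gene-targeting sgRNAs and 13.4% of all genes. None of these sgRNAs was enriched, and the class held 167 counts or 0.0114% (0.00972 to 0.0132), against 182 or 0.0124% (0.0107 to 0.0143) in untreated cells. The 0 counts of RSL-3/LA survivors have a limit of 0.000202%, and 0 of 36 sgRNAs stands against 4.14% of the library. So few sgRNAs cannot show a share below that of the library, and the difference between the screens was not tested.

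CYP8B1, which sets the proportion of cholic acid, had 0 counts in untreated cells and 96 after RSL-3, in 2 sgRNAs of 94 and 2 counts. The former, HGLibB_12204, was at least 31.3-fold higher than in untreated cells at 64.0 CPM. CYP8B1 was the only P450 gene with 2 sgRNAs counted in a survivor library. CYP27A1, a mitochondrial enzyme that oxidises the cholesterol side chain, had 50 counts after RSL-3 through HGLibA_12095, against 16 in untreated cells, a ratio of 3.12 (1.75 to 5.88). A further CYP27A1 sgRNA had 7 untreated counts and 0 after either selection. CYP39A1, an oxysterol hydroxylase, had 21 counts after RSL-3 against 13, both in HGLibA_12152, a ratio of 1.61 (0.771 to 3.51) whose interval includes 1. These were the only P450 sgRNAs with counts in both untreated cells and RSL-3 survivors.

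CYP7A1, the rate-limiting enzyme of bile acid synthesis, had 47 untreated counts in 1 sgRNA, and CYP7B1, of the alternative route, 99 in 1 sgRNA. Both were at 0 in either survivor library, at least 15.7-fold and 33.0-fold lower after RSL-3. CYP46A1, which hydroxylates cholesterol in brain, had no count anywhere.

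Steroid hormone enzymes were the class with the lowest share of sgRNAs in untreated cells, 2 of 36 (5.56%), against 15.9% of all gene-targeting sgRNAs. This difference was not tested. In RSL-3 survivors 0 of 36 had a count (against 2.43%) and after RSL-3/LA 1 (2.78%, against 4.14%). So few sgRNAs cannot show a share below that of the library. CYP11B1, which makes cortisol, had 3 untreated counts in HGLibA_12056 and 105 counts after RSL-3/LA in another sgRNA, HGLibB_12042. The latter was at least 34.6-fold higher than in untreated cells but stayed at 70.7 CPM. CYP11B2, which makes aldosterone, had 118 untreated counts and 0 after either selection. CYP11A1, which cleaves the cholesterol side chain, CYP17A1, needed for cortisol and sex steroids, CYP19A1, the aromatase, and CYP21A2, needed for cortisol and aldosterone, had no count in any library, so nothing was measured of these 4 genes.

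Drug enzymes were close to the library in untreated cells and had few counts in survivors. Of the 92 sgRNAs of these 16 genes, 15 had an untreated count (16.3%, against 15.9% of all gene-targeting sgRNAs) and together held 1079 counts. In RSL-3 survivors 1 sgRNA had a count (1.09%, against 2.43%) and after RSL-3/LA 3 (3.26%, against 4.14%), with 31 and 26 counts in all. These survivor shares rest on too few sgRNAs to show a difference from the library. CYP1B1, which oxidises foreign compounds and oestrogens, had 238 untreated counts in HGLibA_12073 (198) and HGLibA_12074 (40), both at 0 in survivors. Other CYP1B1 sgRNAs with 0 untreated counts gave 31 counts after RSL-3 and 15 after RSL-3/LA. Over all its sgRNAs CYP1B1 stood at a ratio of 0.130 (0.0865 to 0.190) after RSL-3 and 0.0622 (0.0343 to 0.105) after RSL-3/LA. It was the only P450 gene apart from CYP4F11 with counts in both survivor libraries, each time through a different sgRNA.

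CYP3A7, the form of fetal liver, kept 10 of the 44 untreated counts of HGLibA_12163 after RSL-3/LA, a ratio of 0.224 (0.101 to 0.452), whereas its other counted sgRNA went from 109 to 0. CYP1A1, which oxidises aromatic hydrocarbons, had 28 untreated counts and 1 count after RSL-3/LA, in a different sgRNA. CYP2D6, which metabolises many antidepressants and opioids, had 187 untreated counts in 1 sgRNA and 0 after selection, at least 62.4-fold lower after RSL-3. CYP2C8, CYP3A5, CYP2F1, CYP2C19, CYP2C18 and CYP2B6 likewise had between 2 and 173 untreated counts and 0 in both survivor libraries. CYP3A4, the main drug-metabolising P450 of adult liver, CYP2E1, which activates acetaminophen and ethanol, CYP1A2, which clears caffeine, CYP2A6, which clears nicotine, and CYP2A13 of the airways had no count in any library.

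Among the 9 genes without a settled substrate, CYP27C1, a retinoid desaturase of skin that is not placed with the vitamin enzymes here, had 102 counts after RSL-3/LA and 0 elsewhere, at least 33.6-fold higher than in untreated cells at 68.6 CPM. HGLibB_12136, an sgRNA of CYP2W1, an enzyme of fetal gut and colon tumours, had 3 counts in untreated cells and 22 after RSL-3/LA, a ratio of 7.24 (2.17 to 37.8), and a second CYP2W1 sgRNA had 9 and 0. CYP3A43 had 204 untreated counts in 2 sgRNAs, CYP2S1 158 in 1 and CYP2A7 3 in 1, all at 0 in survivors. CYP20A1, CYP4A22, CYP4X1 and CYP4Z1 had no count in any library.

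Loss of the sgRNAs seen in untreated cells was the rule for P450 genes as for the library. Of 38 such sgRNAs, 36 had 0 counts after RSL-3 (94.7%), against 96.2% of all gene-targeting sgRNAs, and 35 after RSL-3/LA (92.1%), against 93.8%. The lost sgRNAs had held 2726 and 2596 of the 2755 untreated P450 counts. For the 31 lost in each screen from more than 3 untreated counts, the lower bound of the decrease ran from 1.67-fold to 79.4-fold after RSL-3 and from 1.69-fold to 80.4-fold after RSL-3/LA, as set by the untreated count. Conversely, 4 of the 6 P450 sgRNAs counted after RSL-3 (66.7%) had 0 untreated counts, against 74.8% of all such sgRNAs, and 8 of 11 after RSL-3/LA (72.7%), against 76.3%. A total of 20 P450 genes had no count in any library, and for these the screen holds no measurement.

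P450 genes were also divided by the compartment of the enzyme, a split made after the values were seen. The 7 mitochondrial enzymes, CYP11A1, CYP11B1, CYP11B2, CYP24A1, CYP27A1, CYP27B1 and CYP27C1, have 42 sgRNAs. Of these 6 had an untreated count (14.3%), 1 a count after RSL-3 (2.38%) and 3 after RSL-3/LA (7.14%). Of the 278 sgRNAs of the 47 enzymes of the endoplasmic reticulum, the numbers were 32 (11.5%), 5 (1.80%) and 8 (2.88%). The shares of all gene-targeting sgRNAs were 15.9%, 2.43% and 4.14%, and the mitochondrial share after RSL-3/LA rests on 3 sgRNAs.

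Genes that supply P450 enzymes with electrons or haem, or whose products bind P450 enzymes, were set beside them. Of 17 such genes with 102 sgRNAs, 2 had an enriched sgRNA after RSL-3 and 1 after RSL-3/LA, which is 11.8% and 5.88% of the list against 2.44% and 6.72% of all genes, for a list drawn up with these counts known. POR had 232 untreated counts, 5645 after RSL-3 and 97 after RSL-3/LA. Its enriched sgRNA HGLibB_37656 had 0 untreated counts and was close in level to the CYP4F11 sgRNA after RSL-3. The other counted POR sgRNAs did not share this. HGLibB_37655 had 89 counts untreated, 0 after RSL-3 and 91 after RSL-3/LA, and HGLibA_37705 had 143, 0 and 0. PGRMC1, a haem protein that binds P450 enzymes, had 5163 counts after RSL-3 through an sgRNA with 76 untreated counts and 2 after RSL-3/LA. Other PGRMC1 sgRNAs had 146 and 16 untreated counts and 0 in survivors, as did most sgRNAs of the library seen in untreated cells. A further one had 55 counts after RSL-3/LA alone.

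FDX1 was the only gene of the list in which the same sgRNA exceeded 10 counts in both survivor libraries. HGLibB_17236 had 0 counts in untreated cells, 118 after RSL-3 and 170 after RSL-3/LA, at least 39.3-fold and 55.9-fold higher. It was enriched after RSL-3/LA at 114 CPM and below the limit after RSL-3 at 80.4 CPM. FDXR, its reductase, had 24 untreated counts in 1 sgRNA and 5 counts after RSL-3 in another. Among haem synthesis genes, ALAS1, the rate-limiting enzyme in liver, had 69 untreated counts and 24 after RSL-3, in different sgRNAs. UROD, ALAD, PPOX and FECH had 199, 98, 95 and 24 untreated counts, and of these only ALAD had any in survivors, with 1 after RSL-3/LA. CYB5R3 and CYB5B, which belong to the cytochrome b5 electron route, had 157 and 102 untreated counts and 0 afterwards, and PGRMC2, a relative of PGRMC1, had 50 and 0. FDX1L, a second mitochondrial ferredoxin, had 63 untreated counts and 1 after RSL-3. UROS, CPOX and cytochrome b5 itself, CYB5A, had no count anywhere.

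**Figure D4:**
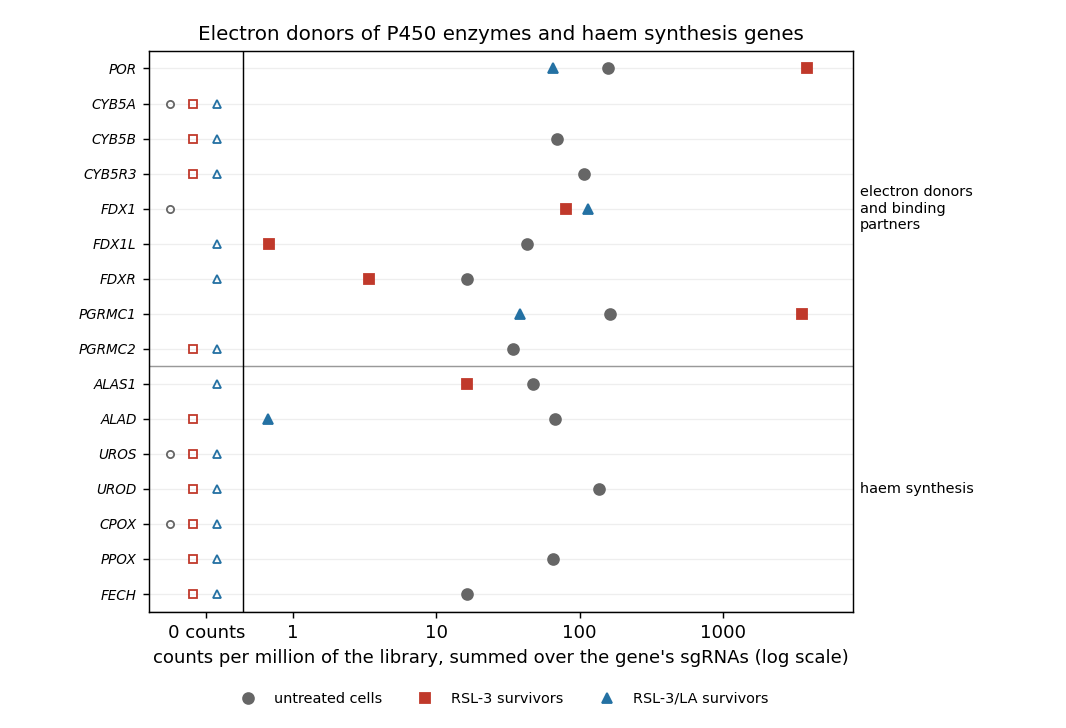
CPM summed over the sgRNAs of electron donor and partner genes and of haem synthesis genes named in the text (x axis, log scale, open symbols at the left for 0 counts), with symbols for the 3 libraries as in the key. POR and PGRMC1 stand above 1000 CPM after RSL-3, and FDX1 has counts in both survivor libraries and 0 in untreated cells.

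Of 11 further genes of bile acid synthesis, 1 had an enriched sgRNA after RSL-3 (9.09%, against 2.44% of all genes) and 0 after RSL-3/LA (against 6.72%). This list too was drawn up with results of these data known, and the share after RSL-3 rests on a single sgRNA. The gene was HSD17B4, a peroxisomal enzyme that shortens the bile acid side chain and very long fatty acids. It had 636 counts in HGLibB_22163, at least 212-fold higher than in untreated cells. Its other counted sgRNAs had 4 and 1 untreated counts and 0 afterwards. BAAT, which conjugates bile acids, had 90 untreated counts and 10 after RSL-3, and AKR1D1, a steroid reductase, had 40 counts after RSL-3/LA only. AKR1C4, also a steroid reductase, and SLC27A5, which activates bile acids for conjugation, had 51 and 31 untreated counts and 0 in survivors.

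Of 14 genes of the receptors and signals that control P450 transcription, 0 had an enriched sgRNA, against 2.44% of all genes after RSL-3 and 6.72% after RSL-3/LA, and a list of this size cannot show a share below those. The xenobiotic receptor NR1I2 had 315 untreated counts in 3 sgRNAs and NR1I3 had 103 in 2, all at 0 after selection. The bile acid receptor NR1H4 had 156 untreated counts, 12 after RSL-3 in the same sgRNA and 98 after RSL-3/LA in another. FGFR4, through which bile acids repress CYP7A1, had 94 counts after RSL-3/LA and 0 elsewhere, and AHR, which induces CYP1A1, had 54, 0 and 80. ARNT, the partner of AHR, had 176 untreated counts in 3 sgRNAs and 18 after RSL-3/LA, and PPARA, which induces CYP4A11, had 126 and 0. Of the P450 genes outside the symbol rule, CYP51A1 had 3 untreated counts and PTGIS 149, with 0 in survivors, and TBXAS1 had 51 after RSL-3/LA alone.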

How the data were processed

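The sgRNA cassettes were amplified by PCR from genomic DNA, sequenced on a MiSeq and processed with MAGeCK, which the submitters' processing notes also name. Trimming and matching settings are not given in the sources used here. The authors deposited raw counts per sgRNA in 2 tables, whose untreated columns are identical and were used as 1 library. The deposited tables per target hold the authors' own comparisons and were not used. The sgRNA sequences were not used here, and some genes are counted but not reported by name here.

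From the counts, CPM, exact Clopper-Pearson intervals and calls of enriched sgRNAs were computed. RefSeq's gene table (GRCh38.p14) holds all 54 symbols and served for names and neighbours only. Classes and pathway lists follow textbook substrates. Members and lists were chosen with earlier results of these data known. The genes named are all P450 genes with a survivor count, the 2 per class with the most untreated counts, and list genes with an enriched sgRNA or many untreated counts; other genes were named after their values were seen, to account for every member and pathway. No test between conditions was possible. The calls were tested on simulated data only for sgRNAs with 10 or more untreated counts. All enriched P450 sgRNAs had 0 untreated counts, so that test does not cover them. Thresholds, scaling, floor, pseudocount and membership were varied. Python 3.11.15, numpy 2.4.6, pandas 2.3.3, scipy 1.17.1 and matplotlib 3.10.9 were used.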

Additional observations from a re-analysis of the deposited data

Results flagged for a closer look

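For 5 P450 genes the survivor library lay above the untreated library in one screen and below it in the other. These differences between the screens were not tested, since each rests on single libraries at different RSL-3 doses. The share of all genes with this pattern was not computed, so it cannot be read as a trait of P450 genes. In RSL-3 survivors the summed sgRNAs of CYP27A1 had 2.17 times the untreated CPM (95% interval 1.30 to 3.73) and those of CYP39A1 1.61 times (0.771 to 3.51), and both had 0 counts after RSL-3/LA. In RSL-3/LA survivors CYP11B1 had a ratio of 34.6 (11.5 to 170.2), CYP2R1 of 4.01 (3.28 to 4.94) and CYP2W1 of 1.81 (0.858 to 4.01), and all of them had 0 counts after RSL-3. The intervals of CYP39A1 and CYP2W1 include 1, and so does that of CYP11B1 after RSL-3, at 3 untreated counts against 0 (0 to 2.42). For CYP11B1 and CYP2R1 the untreated and the survivor counts came from different sgRNAs.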

How the results depend on the processing

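The number of enriched P450 sgRNAs, 1 after RSL-3 and 2 after RSL-3/LA, was 2 and 5 at a threshold of 50 CPM, when 749 and 1998 sgRNAs of the library were enriched, against 500 and 1428 at 100 CPM. At 1000 CPM it was 1 after RSL-3/LA, when 147 sgRNAs of the library were enriched. Scaling to the median ratio of sgRNAs counted in both libraries gave 2 after RSL-3, with 679 in the library. Leaving out the counts of DHCR7 gave 3 after RSL-3/LA, with 1480 in the library. Restricted to sgRNAs of 10 or more untreated counts it was 0 in both screens, since no enriched P450 sgRNA had an untreated count, and 38 and 105 in the library. The P450 share of counts without DHCR7 was 0.577% after RSL-3 and 0.205% after RSL-3/LA. Without the P450 gene with the most counts in each library it was 0.170% in untreated cells, 0.0135% after RSL-3 and 0.0659% after RSL-3/LA. With CYP51A1, TBXAS1 and PTGIS it was 0.198% in untreated cells. The log2 ratios of the named genes had 120 alternative values, from other pseudocounts or from CPM without DHCR7. None changed direction, but a pseudocount added to both libraries cannot do so, and leaving out DHCR7 only rescales each library. The unchanged direction is therefore no check of these ratios. In size, 32 of 40 with a pseudocount of 10 CPM and 1 of 40 without DHCR7 lay outside the counting interval of the ratio. An example was CYP2S1 after RSL-3, at -3.56 in place of -6.76. No paired analysis was possible because only 1 library stands for each condition, so none could be left out either. With 11.9% of P450 sgRNAs seen in untreated cells, most sgRNAs have no starting level.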

Other observations

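P450 genes lie in clusters of related copies, and 31 of the 54 genes fell into 8 clusters in which at most 5 other protein-coding genes separate the members. In the CYP4 cluster of 5 genes, CYP4A11 lies next to CYP4B1, and CYP4A11 had 0 untreated and 1890 RSL-3/LA counts while CYP4B1 had 238 and 0. In the CYP4F cluster of 6 genes, CYP4F11 lies next to CYP4F2, which had 35 untreated counts and 0 in survivors. The 6 genes of the CYP2A, CYP2B, CYP2F and CYP2S cluster had no survivor count. Of these, CYP2A6 and CYP2A13 had no count in any library, and CYP2A7 and CYP2B6 only 3 and 2 untreated counts. In the CYP3A cluster of 4 genes, CYP3A7 alone had a survivor count. Among all genes 13.4% had a count after RSL-3 and 21.8% after RSL-3/LA, so clusters of this size cannot show a lower share.

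The GeCKOv2 pool consists of sublibraries A and B. Of P450 sgRNAs, 19 of 161 (11.8%) of sublibrary A had an untreated count, against 17.2% of its gene-targeting sgRNAs, and 19 of 159 (11.9%) of sublibrary B, against 14.7%. No P450 gene had more than 2 sgRNAs with an untreated count, and 5.48% of all genes did. This difference rests on few genes and was not tested.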
